A study of Mus musculus with 25 samples.

Results

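Resting regulatory T cells (Treg) of the genotype p65 c-Rel DKO, in which the NF-kB subunits p65 and c-Rel are both deficient, were set against resting conventional T cells (Tconv) of the genotype WT. The members were taken from the sample titles: DKO Treg replicates 1 and 2 and WT Tconv replicates 1 and 2, which are 4 of the 25 libraries of the series. All were RNA-seq libraries of unstimulated cells from spleen and lymph node of mice on the C57BL/6 strain, with no other allele or agent named in the labels. The question was how much of the Treg expression pattern was left when both subunits were missing, so the DKO Treg values are also given beside 4 libraries of resting WT Treg where that shows how far they lay from the unmodified cell type. The labels give no animal age or sex, no promoter or Cre driving the deletion, no sorting scheme, and no statement that replicates came from separate animals. The p-values therefore measure only the spread between libraries of 1 group, pooled over the groups of the fit, and part of it may be technical.

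Treg hold other T cells in check and depend on the transcription factor Foxp3, encoded on the X chromosome, while Tconv are the helper cells that they restrain. Treg are known for constant high expression of the high-affinity interleukin 2 receptor, of inhibitory receptors such as Ctla4, and of machinery that presents and activates the cytokine TGF-beta. NF-kB is a family of dimeric transcription factors that antigen receptor, costimulatory and TNF receptor signals release into the nucleus, where it switches on its own inhibitors, survival genes and immune genes. p65 is encoded by Rela and c-Rel by Rel, and both carry the domain that activates transcription.

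Values are FPKM, which are levels per transcript length and per mapped fragment, and differences are on the log2(FPKM + 1) scale, DKO Treg minus WT Tconv unless another group is named. A gene is called higher or lower when its Benjamini-Hochberg adjusted p from limma was under 0.05 over all 11535 genes tested. An error after a difference is its standard error. The library numbers in the labels were 14 and 29 for DKO Treg and 10 and 21 for WT Tconv, so replicates with the same number lay in the same run of library numbers. They are treated as a pair, and a direction is described as holding in both pairs when DKO Treg minus WT Tconv had the same sign in each. WT Treg replicates 3 and 4, with numbers 12 and 23, lay in those runs as well. WT Treg replicates 1 and 2, with numbers 1 and 6, lay in runs without a DKO Treg or WT Tconv library. Unblocked differences from WT Treg, and its ranges, therefore mix run with genotype in part. The implied depth was 19.7 M and 47.8 M fragments in DKO Treg, against 18 M and 50.6 M in WT Tconv (M, 1000000), so replicate 1 was the shallower library in each group. With 2 libraries against 2, an exact two-sided permutation test of a lone gene could not go below a p of 0.333, and the tests here rest on the spread shared across all groups of the fit.

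The targeted genes were looked at before the comparison. Rel (chr11:23641729-23670970, mm9) had 2.06 and 1.96 FPKM in DKO Treg, against 63.5 and 62.6 FPKM in WT Tconv, and fell by 4.41 ± 0.89 on the log2 scale (adjusted p = 0.00148). Its level in WT Treg was 27.5, 199.5, 271 and 252 FPKM, so both DKO Treg libraries lay far under every WT library. Rela (chr19:5637490-5648130) kept much of its RNA, with 76.1 and 56.3 FPKM in DKO Treg and 109.5 and 112 FPKM in WT Tconv, a difference of -0.75 ± 0.26 (adjusted p = 0.0385). WT Treg had 64.9 to 129.7 FPKM of Rela, a range that holds the first DKO Treg library. The labels do not name the deleted exons and a value for a whole gene cannot show them, so the level of Rela does not check the loss of p65. Rela was no longer called without DKO Treg replicate 2, without either WT Tconv library, without a filter on low values or after scaling by size factors.

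The libraries carried the T cell markers that their labels call for. Cd4, the coreceptor of helper and regulatory T cells, had 308 FPKM in each DKO Treg library and 290.5 and 286 FPKM in WT Tconv. Of 13 T cell genes, Cd2 and Thy1 were called higher and Cd247, the zeta chain of the T cell receptor complex, lower. Both higher calls were lost without DKO Treg replicate 2 or WT Tconv replicate 2, and that of Cd2 also without DKO Treg replicate 1. Signals of other cell types were weak but not equal. B cell markers summed to 7.94 and 13.3 FPKM in DKO Treg and to 4.57 and 4.79 FPKM in WT Tconv, with 0 of 11 tested markers called in either direction. Neutrophil markers summed to 29.5 and 67.9 FPKM in DKO Treg and to 3.59 and 9.20 FPKM in WT Tconv, erythroid markers to 17.6 and 39.8 FPKM against 4.86 and 8.68 FPKM, and myeloid markers to 129.6 and 134 FPKM against 164.5 and 193 FPKM. Most of the myeloid sum was Ctss, with 109.6 and 88.0 FPKM in DKO Treg and 150.8 and 181.2 FPKM in WT Tconv. Of the 14 myeloid markers tested, 9 were higher and 1 lower in DKO Treg in both pairs, with a median difference of 0.46. None of the 10 neutrophil, 7 erythroid and 14 myeloid markers tested was called at an adjusted p under 0.05. At an unadjusted limma p under 0.05, 1 of these was higher, a myeloid marker, and 0 of the B cell, neutrophil and erythroid markers. With the library run as a block, 1 of the 11 B cell markers was higher, and of the 14 myeloid markers 2 were higher and 1 lower. That fit called 0 of the neutrophil and erythroid markers, and over all genes 4002 higher and 3397 lower. Plasma cell markers summed to 332 and 282 FPKM in DKO Treg and to 121.5 and 98.9 FPKM in WT Tconv. Of 5 tested, 2 were called higher, Xbp1 and Prdm1. Xbp1 was not called without either DKO Treg library or without WT Tconv replicate 2. Nearly all of the DKO Treg sums was Xbp1 (203 and 187 FPKM) and Irf4 (113 and 76.8 FPKM). Irf4 and Prdm1 are also on the list of Treg transcription factors. Igj had 0.19 and 0.153 FPKM in DKO Treg and 1.19 and 4.02 FPKM in WT Tconv, and Sdc1 at most 0.839 FPKM in these 4 libraries. Stromal markers reached at most 0.536 FPKM in sum in any of the 4 libraries. Xist, made from the inactive X chromosome of female cells, had 22.6 and 36.4 FPKM in DKO Treg and 47.4 and 0.00947 FPKM in WT Tconv, and the Y-linked Ddx3y had 60.6 FPKM in WT Tconv replicate 2 against 0 and 0.0188 FPKM in DKO Treg and 0 FPKM in WT Tconv replicate 1. WT Tconv replicate 2 was thus of another sex than the other 3 libraries, and the part of sex in the results was not tested.

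DKO Treg and WT Tconv differed widely: 2391 genes, 20.7% of those tested, were called higher in DKO Treg and 1863, 16.2%, lower. Of these, 1531 were at least 2-fold higher and 1043 at least 2-fold lower on the log2(FPKM + 1) scale, and all 4254 called genes had the same sign in both pairs. The median difference over all genes was 0.065, so the groups were centred alike. The shares of 20.7% higher and 16.2% lower are the background for each list count against WT Tconv below. For counts against WT Treg the background is 19.4% higher and 13.6% lower. With the library run as a block the totals were 4002 higher and 3397 lower. Without WT Tconv replicate 2 the total was 2715.

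**Figure D1:**
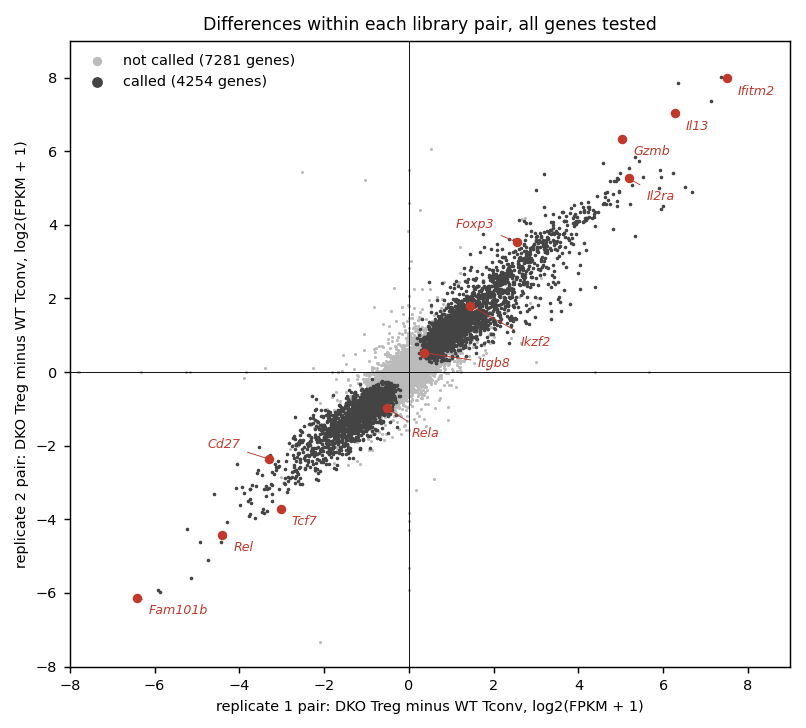
Each point is a gene tested, placed by its log2(FPKM + 1) difference between DKO Treg and WT Tconv in the replicate 1 pair (horizontal axis) and in the replicate 2 pair (vertical axis), with called genes dark and 12 genes described in the text in red. The 4254 called genes all lie in the quadrants where both pairs have the same sign, from Fam101b at the lower left to Ifitm2 at the upper right.

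Across 4 lists of Treg identity genes, 39 of 59 tested genes (66.1%) were higher in DKO Treg than in WT Tconv, 4 were lower and 16 were not called, with a median difference of 2.59 beside 0.065 for all genes. The members span transcription factors, surface receptors, suppressive or secreted factors and other genes of the Treg signature. Set against WT Treg, 14 of the same 59 genes were higher in DKO Treg and 16 lower, where 19.4% of all genes were higher and 13.6% lower in that comparison. With the library run as a block, 17 of the 59 were higher and 31 lower than in WT Treg. Both comparisons use the same DKO Treg libraries, so their values stand side by side here. Most of the signature was therefore above the Tconv level, while against WT Treg its members went both ways.

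Foxp3 (chrX:7156802-7172369), the factor that defines the lineage, had 8.01 and 21.2 FPKM in DKO Treg, against 0.541 and 0.927 FPKM in WT Tconv. The groups did not overlap, and the difference was 3.04 ± 0.50 (adjusted p = 0.000334). In WT Treg it had 129, 210.5, 344 and 351 FPKM, and DKO Treg minus WT Treg was -4.09 ± 0.43 (adjusted p = 1.82e-05). Foxp3 RNA in DKO Treg thus lay between the other groups, above every WT Tconv library and under every WT Treg library. In bulk RNA, fewer cells with a full level and less RNA in each cell cannot be told apart.

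Other Treg transcription factors lay at very different places on that scale. Ikzf2 (chr1:69577784-69732534), which encodes Helios, a factor that stabilises Treg, had 19.8 and 27.4 FPKM in DKO Treg and 6.59 and 7.15 FPKM in WT Tconv (1.63 ± 0.20, adjusted p = 2.66e-05). WT Treg had 112 to 122 FPKM of it, and DKO Treg minus WT Treg was -2.30 ± 0.17 (adjusted p = 1.47e-06). Like Foxp3, it was intermediate, with no overlap on either side.

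Gata3, the type 2 helper factor that Treg of tissues also use, had 170.2 and 100.1 FPKM in DKO Treg and 17.9 and 14.8 FPKM in WT Tconv (2.93 ± 0.44, adjusted p = 0.00016), and 47.4 to 95.4 FPKM in WT Treg. Prdm1, which encodes the effector regulator Blimp-1, had 14.5 and 17.4 FPKM in DKO Treg against 2.41 and 2.47 FPKM in WT Tconv, a rise of 2.29 ± 0.26 (adjusted p = 1.69e-05), and was 1.09 ± 0.23 above WT Treg (adjusted p = 0.00233). Both genes sat at or above the top of the WT Treg range. Id2, an inhibitor of E proteins, Batf, a partner of Irf4, and Maf also rose against WT Tconv, by 2.30 ± 0.25, 2.09 ± 0.21 and 1.95 ± 0.22 (adjusted p = 1.31e-05, 6.78e-06 and 1.46e-05).

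In all, 7 of 12 Treg transcription factors were higher than in WT Tconv, 1 was lower and 4 were not called. The lower one was Bcl6, the follicular helper factor, with 8.08 and 2.86 FPKM in DKO Treg and 21.5 and 18.6 FPKM in WT Tconv (-1.83 ± 0.39, adjusted p = 0.00231). Ikzf4, Irf4, Nfil3 and Plagl1 were not called, with differences of 0.78, 0.94, 2.46 and 0.43. With the library run as a block 10 of the 12 factors were higher, and Ikzf4, Irf4 and Nfil3 passed the test (adjusted p = 0.0285, 0.000171 and 2.02e-07). Nfil3, a factor that restrains effector cytokines in Treg, had 79.9 and 58.2 FPKM in DKO Treg and 13.7 and 9.75 FPKM in WT Tconv, with no overlap but a standard error of 1.29. WT Treg had 8.79 FPKM of it in replicate 1 and 159 to 195 FPKM in the other libraries.

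Among surface receptors the interleukin 2 receptor stood out. Il2ra (chr2:11564419-11614821), its high-affinity alpha chain CD25, had 459.7 and 454 FPKM in DKO Treg, against 11.7 and 10.9 FPKM in WT Tconv (5.22 ± 0.50, adjusted p = 4.96e-06). WT Treg had 177, 197, 322 and 491 FPKM, so the DKO Treg libraries lay inside that range, and DKO Treg minus WT Treg was 0.74 ± 0.43 (adjusted p = 0.204). Il2rb, the shared beta chain, had 761 and 802 FPKM in DKO Treg and 136 and 66.4 FPKM in WT Tconv (3.02 ± 0.38, adjusted p = 3.66e-05). CD25 RNA thus lay at the level of WT Treg in libraries whose Foxp3 RNA was far under it.

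Costimulatory and inhibitory receptors rose with it. Icos, a costimulatory receptor, had 856 and 835 FPKM in DKO Treg and 107 and 64.7 FPKM in WT Tconv (3.33 ± 0.51, adjusted p = 0.000203), and exceeded the 111 to 318 FPKM of WT Treg (1.87 ± 0.44, adjusted p = 0.00568). Ctla4, the receptor that strips costimulatory ligands from antigen-presenting cells, had 259.8 and 388 FPKM in DKO Treg and 61.0 and 38.0 FPKM in WT Tconv (2.70 ± 0.72, adjusted p = 0.00906), within the 229 to 1235 FPKM of WT Treg, and was not called without DKO Treg replicate 2 or WT Tconv replicate 2. Tigit rose by 2.64 ± 0.42 (adjusted p = 0.000262). Of the TNF receptor family, Tnfrsf9 (4-1BB) rose by 4.09 ± 1.13, Tnfrsf4 (OX40) by 2.07 ± 0.65, Tnfrsf18 (GITR) by 1.47 ± 0.50 and Tnfrsf1b (TNFR2) by 1.04 ± 0.36 (adjusted p = 0.011, 0.0229, 0.033 and 0.0376). Tnfrsf9 was not called without DKO Treg replicate 1 or WT Tconv replicate 2, Tnfrsf4 and Tnfrsf18 without any of the 4 libraries, and Tnfrsf1b without DKO Treg replicate 1 or either WT Tconv library, while Tnfrsf18 and Tnfrsf1b were also lost after scaling by size factors.

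A second set of receptors was intermediate, as Foxp3 was. Lrrc32 (chr7:105642732-105650340) encodes GARP, the anchor that holds latent TGF-beta on the Treg surface, and had 28.1 and 50.5 FPKM in DKO Treg and 3.36 and 3.31 FPKM in WT Tconv (3.16 ± 0.83, adjusted p = 0.00875). WT Treg had 87.8, 455, 589 and 713 FPKM, and DKO Treg was lower by -3.22 ± 0.72 (adjusted p = 0.00389). Gpr83, an orphan receptor of the Treg signature, had 7.33 and 27.1 FPKM in DKO Treg against 0.385 and 0.591 FPKM in WT Tconv (3.36 ± 0.66, adjusted p = 0.00122), and 40.9 to 138 FPKM in WT Treg. Folr4, which encodes folate receptor 4, had 68.1 and 71.0 FPKM in DKO Treg against 26.5 and 26.7 FPKM in WT Tconv (1.35 ± 0.39, adjusted p = 0.0151), and 212 to 517 FPKM in WT Treg. Itgae, the integrin chain CD103, followed the same order, with differences of 2.22 ± 0.67 from WT Tconv and -1.82 ± 0.58 from WT Treg (adjusted p = 0.0175 and 0.0266). It had 10.5 and 7.33 FPKM in DKO Treg and 17.3 and 15.3 FPKM in WT Treg replicates 3 and 4, of the same runs. In WT Treg replicates 1 and 2, of other runs, it had 70.3 and 65.5 FPKM. Lrrc32 was not called without DKO Treg replicate 2, Folr4 without any of the 4 libraries, and Itgae without DKO Treg replicate 1 or either WT Tconv library.

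A few receptors were not called above WT Tconv and were far under WT Treg. Itgb8, the integrin chain with which Treg activate TGF-beta, had 1.62 and 1.72 FPKM in DKO Treg and 1.05 and 0.888 FPKM in WT Tconv, a difference of 0.44 ± 0.69 (adjusted p = 0.659), beside 9.15, 13.8, 47.8 and 47.4 FPKM in WT Treg (-3.19 ± 0.60, adjusted p = 0.00114). Cd83, an activation marker of Treg and antigen-presenting cells, had 4.25 and 7.38 FPKM in DKO Treg and 12.6 and 14.3 FPKM in WT Tconv (-1.12 ± 0.73, adjusted p = 0.252), beside 64.4 to 307 FPKM in WT Treg (-4.77 ± 0.63, adjusted p = 9.22e-05). Cd27, a costimulatory receptor of the TNF receptor family, was lower than in both WT groups: 12 and 22.9 FPKM in DKO Treg, against 127 and 122 FPKM in WT Tconv (-2.83 ± 0.36, adjusted p = 4.1e-05) and 136 to 256 FPKM in WT Treg (-3.29 ± 0.31, adjusted p = 8.95e-06). None of these 3 receptors was called higher than in WT Tconv.

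Over the whole receptor list, 15 of 20 genes were higher than in WT Tconv, 2 were lower (Cd27 and Ly6c1) and 3 were not called (Cd5, Cd83 and Itgb8), with a median difference of 2.40. Against WT Treg, 1 was higher and 10 were lower, beside 19.4% higher and 13.6% lower over all genes tested. The count of 15 depended on the libraries: it was 7 without DKO Treg replicate 1, 10 without DKO Treg replicate 2, 10 without WT Tconv replicate 1 and 8 without WT Tconv replicate 2. In both pairs 16 of the 20 were higher in DKO Treg. Ly6c1 was not called without DKO Treg replicate 1 or WT Tconv replicate 2.

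Suppressive and secreted factors included some of the largest rises of the comparison. Gzmb (chr14:56877695-56881097), the cytotoxic protease granzyme B, had 66.7 and 160.2 FPKM in DKO Treg and 1.07 and 0.991 FPKM in WT Tconv (5.69 ± 0.51, adjusted p = 3.34e-06), and 14.1 to 32.3 FPKM in WT Treg. Fgl2, a secreted fibrinogen-like suppressor, had 240.5 and 93.9 FPKM in DKO Treg and 2.21 and 1.22 FPKM in WT Tconv (5.83 ± 0.55, adjusted p = 4.91e-06), and 16.8 to 23.4 FPKM in WT Treg. Lgals1, the glycan-binding galectin-1, had 1451 and 1984 FPKM in DKO Treg and 32.9 and 36.5 FPKM in WT Tconv (5.57 ± 0.52, adjusted p = 4.51e-06), and 89.9 to 315 FPKM in WT Treg. These 3 genes were thus above both WT groups, with no overlap.

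Entpd1, which encodes the ATP-degrading enzyme CD39, had 24.1 and 29.1 FPKM in DKO Treg and 1.36 and 0.792 FPKM in WT Tconv (3.74 ± 0.25, adjusted p = 5.11e-07), and the inhibitory receptor Lag3 rose by 3.40 ± 0.57 (adjusted p = 0.000379). Ebi3, a subunit of interleukins 27 and 35, Il1r2, a decoy receptor for interleukin 1, and Penk, the precursor of enkephalins, rose by 3.01 ± 0.38, 3.15 ± 0.42 and 2.84 ± 0.42 (adjusted p = 3.95e-05, 5.75e-05 and 0.000155). Each of these 3 differed from WT Treg by at most 0.44 in size and was not called there. Il12a, the other subunit of interleukin 35, was listed at 0 and 0.12 FPKM in DKO Treg and at 0 and 0.0181 FPKM in WT Tconv and did not pass the filter.

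Il10 and Areg did not pass the test against WT Tconv. The inhibitory cytokine Il10 had 13.8 and 17.7 FPKM in DKO Treg and 5.58 and 2.40 FPKM in WT Tconv (1.81 ± 0.80, adjusted p = 0.0929), and the tissue repair factor Areg had 23.1 and 13.2 FPKM against 2.27 and 1.88 FPKM (2.59 ± 1.14, adjusted p = 0.09). In each gene the DKO Treg libraries lay above both WT Tconv libraries, and with the library run as a block both passed the test (adjusted p = 0.0049 and 1.12e-06). Tgfb1 had 179 and 118 FPKM in DKO Treg and 118 FPKM in each WT Tconv library (0.30 ± 0.33, adjusted p = 0.518). Perforin (Prf1) fell to 0.167 and 0.594 FPKM in DKO Treg, against 5.81 and 3.86 FPKM in WT Tconv (-2.08 ± 0.66, adjusted p = 0.0246), the opposite direction to Gzmb, and its call was lost when any of the 4 libraries was left out. In total 8 of 13 tested factors were higher than in WT Tconv, 1 was lower and 4 were not called. Against WT Treg, 5 were higher and 0 lower, beside 19.4% and 13.6% over all genes tested.

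Of the 14 remaining signature genes, 9 were higher than in WT Tconv, 0 lower and 5 not called, with a median difference of 2.93. Socs2, a feedback inhibitor induced by STAT5, had 133 and 127 FPKM in DKO Treg and 3.68 and 2.50 FPKM in WT Tconv (5.02 ± 0.40, adjusted p = 1.33e-06). The calcium-binding S100a4 had 1026 and 684 FPKM in DKO Treg and 31.9 and 21.8 FPKM in WT Tconv (4.94 ± 0.78, adjusted p = 0.000252), and S100a6 rose by 5.08 ± 0.58 (adjusted p = 1.74e-05). Coro2a, Rgs1, Cst7, Glrx, Capg and Rgs16 rose by 1.82 to 4.13, and Rgs16 was not called without DKO Treg replicate 1 or either WT Tconv library. The 5 genes not called included Swap70, with 5.30 and 15.1 FPKM in DKO Treg, 3.36 and 3.73 FPKM in WT Tconv and 25.9 to 115 FPKM in WT Treg, and Lad1, with 0.037 and 0.515 FPKM in DKO Treg, 1.31 and 5.29 FPKM in WT Tconv and 7.37 to 32.8 FPKM in WT Treg. Those 2 were lower than in WT Treg, by -2.63 ± 0.58 and -3.53 ± 0.63 (adjusted p = 0.00337 and 0.000816).

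**Figure D2:**
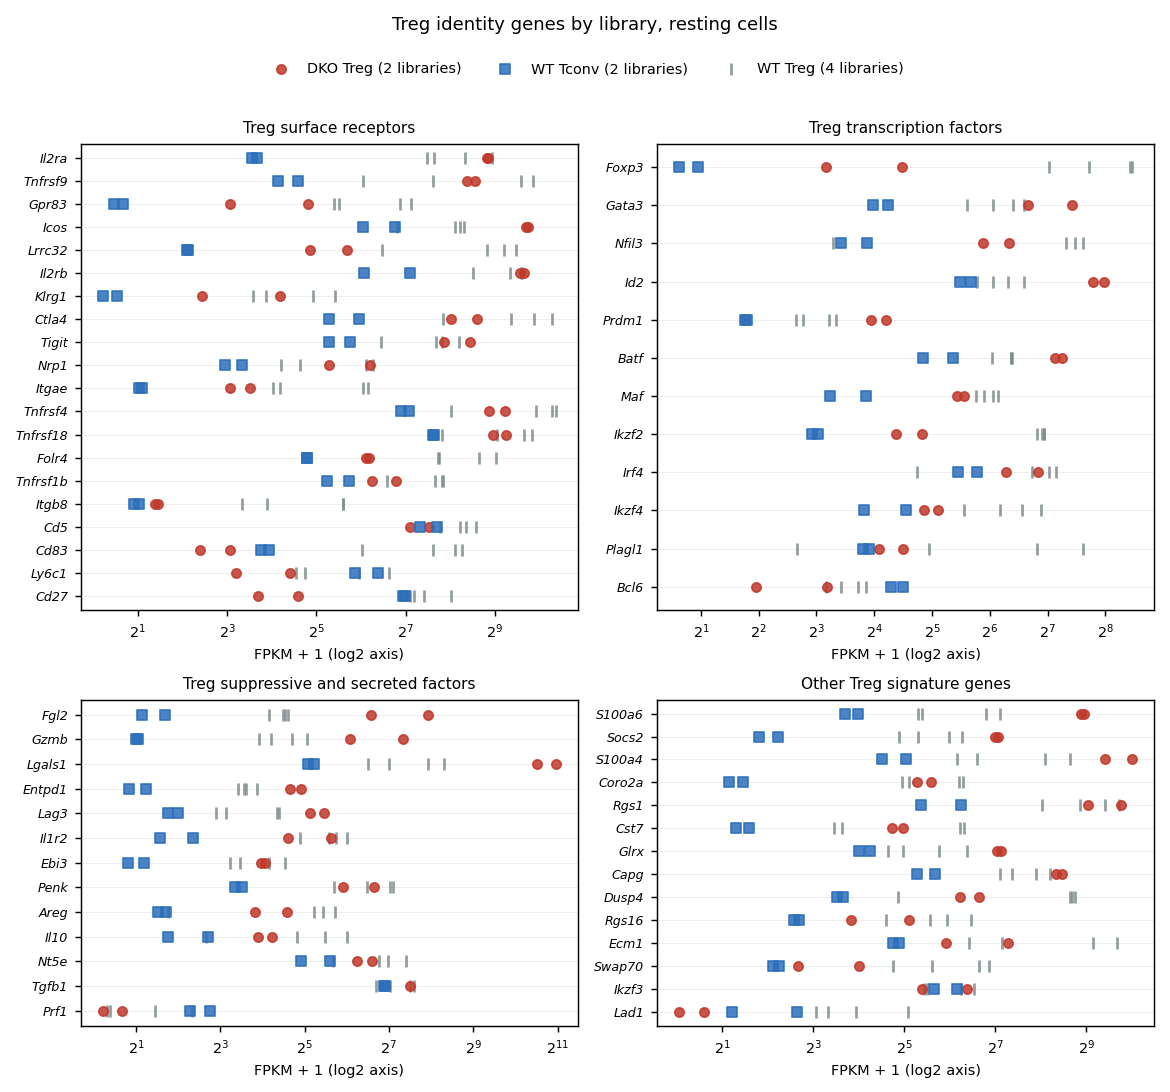
FPKM + 1 on a log2 axis for the 59 tested genes of the 4 Treg identity lists, 1 row per gene, with each library as a point: red circles are DKO Treg, blue squares WT Tconv and grey ticks WT Treg. Foxp3, Ikzf2, Lrrc32 and Folr4 show the red circles between the blue squares and the grey ticks, Il2ra shows them among the grey ticks, Lgals1 and Gzmb above all of them, and Itgb8 near the blue squares.

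Most genes that mark Tconv against Treg were lower in DKO Treg. Of 15 Tconv signature genes, 10 were lower than in WT Tconv, 1 was higher and 4 were not called, with a median difference of -2.97. Tcf7, the T cell factor TCF-1, had 123 and 81.2 FPKM in DKO Treg and 1006 and 1077 FPKM in WT Tconv (-3.37 ± 0.56, adjusted p = 0.000366), and 120.4 to 399 FPKM in WT Treg. Satb1, a chromatin organiser that Foxp3 represses, had 36.9 and 52.4 FPKM in DKO Treg and 419.7 and 366 FPKM in WT Tconv (-3.13 ± 0.50, adjusted p = 0.000268), and 66.5 to 245 FPKM in WT Treg. Both DKO Treg libraries lay under every WT library for Satb1, although Foxp3 itself was low in them.

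Il7r, the interleukin 7 receptor chain that Treg keep low, had 98.6 and 54.4 FPKM in DKO Treg and 570.1 and 458 FPKM in WT Tconv (-2.78 ± 0.52, adjusted p = 0.000879), and 25.9 to 83.9 FPKM in WT Treg. Pde3b, a phosphodiesterase gene repressed by Foxp3, was 1 of 2 members of this list that were higher than in WT Treg: it had 17.6 and 28.2 FPKM in DKO Treg, 124 and 118 FPKM in WT Tconv (-2.39 ± 0.32, adjusted p = 7.1e-05) and 4.13 to 8.08 FPKM in WT Treg (1.78 ± 0.28, adjusted p = 0.000341). The other was Themis, which tunes T cell receptor signals: it had 64.3 and 91.9 FPKM in DKO Treg and 22.8 and 21.6 FPKM in WT Tconv (1.75 ± 0.49, adjusted p = 0.0122), and was not called without DKO Treg replicate 2 or without either WT Tconv library. The cytokine Il2, which Foxp3 silences, stayed low, with 1.62 and 0.799 FPKM in DKO Treg and 2.99 and 1.58 FPKM in WT Tconv (-0.56 ± 0.73, adjusted p = 0.586). Against WT Treg, 6 of the 15 genes were lower and 2 higher, beside 13.6% lower and 19.4% higher over all genes tested.

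The same direction ran through a list of naive and central T cell genes, in which 14 of 16 were lower in DKO Treg, 0 were higher and all 16 were lower in both pairs. It shares members with the Tconv signature (among them Tcf7, Lef1, Satb1, Bach2 and Il7r). Lef1, the partner of Tcf7, had 23.1 and 29.5 FPKM in DKO Treg and 258 and 274 FPKM in WT Tconv (-3.30 ± 0.23, adjusted p = 5.59e-07). Foxp1, a quiescence factor, had 15.8 and 15.9 FPKM against 86.2 and 79.4 FPKM (-2.32 ± 0.19, adjusted p = 1.79e-06). Bach2 and the kinase gene Txk fell by 2.97 ± 0.36 and 2.79 ± 0.38 on the log2 scale (adjusted p = 3.17e-05 and 6.86e-05).

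A Treg program from libraries outside this comparison was taken from stimulated WT cells, which had been given IL-2 and antibodies to CD3 and CD28 for 3 h. In those cells, 325 genes were at least 2-fold higher in stimulated WT Treg than in stimulated WT Tconv at an adjusted p under 0.05 (2 libraries each), and 204 were at least 2-fold lower. Of the 325 Treg-high genes, 184 (56.6%) were higher in resting DKO Treg than in resting WT Tconv, 14 (4.31%) lower and 127 not called, with a median difference of 1.12. In both pairs 259 of them were higher. Of the 204 Tconv-high genes, 67 (32.8%) were lower, 31 (15.2%) higher and 106 not called, with a median difference of -0.25. Against resting WT Treg, 65 of the 325 Treg-high genes were higher and 125 lower in DKO Treg, with a median of -0.38. Over all genes tested, 20.7% were higher and 16.2% lower than in WT Tconv, and 19.4% higher and 13.6% lower than in WT Treg.

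The mean log2(FPKM + 1) of the 325 Treg-high genes was 3.74 and 3.76 in DKO Treg, against 2.44 and 2.42 in WT Tconv, and 3.90, 4.09, 4.17 and 4.29 in WT Treg. DKO Treg lay between these groups and nearer to WT Treg, under each of its libraries. For the 204 Tconv-high genes it was 3.33 and 3.41 in DKO Treg, against 3.85 and 3.79 in WT Tconv, while WT Treg had 3.58 in replicate 1 and 3.26, 3.06 and 3.05 in the other libraries. DKO Treg lay under WT Treg replicate 1 and above the other 3. Against resting WT Treg, 43 of the 204 genes were higher and 28 lower in DKO Treg, with a median of 0.14. Those counts were close to the shares of all genes tested in that comparison, 19.4% higher and 13.6% lower. The Tconv-high set was defined in stimulated cells and holds genes that stimulation induces in Tconv, such as Il2.

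**Figure D3:**
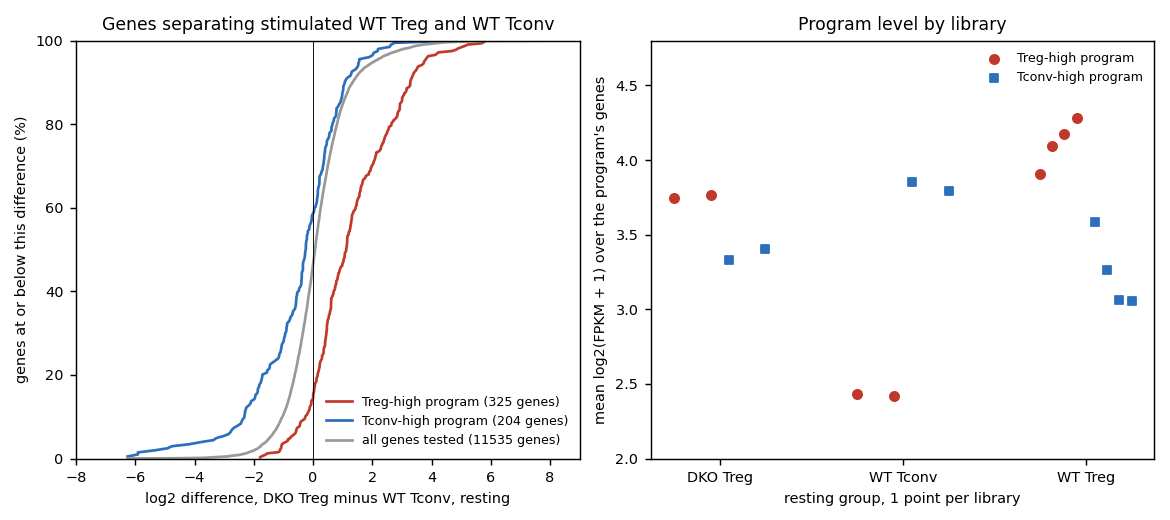
Left, the share of genes at or below each log2 difference between resting DKO Treg and WT Tconv, for the 325 Treg-high genes, the 204 Tconv-high genes and all 11535 genes tested; right, the mean log2(FPKM + 1) of both gene sets in each resting library. The Treg-high curve lies to the right of all genes, and the Treg-high points of DKO Treg, 3.74 and 3.76, sit above WT Tconv and under WT Treg.

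The 5 largest rises were of genes outside the Treg identity lists. Ifitm2 (chr7:148140738-148141860), Ifitm3 and Ifitm1 encode interferon-inducible membrane proteins that restrict viral entry and lie close together on chromosome 7. Ifitm2 had 764 and 819.5 FPKM in DKO Treg and 3.23 and 2.25 FPKM in WT Tconv (7.74 ± 0.21, adjusted p = 4.3e-11), and 9.61 to 10.2 FPKM in WT Treg. Ifitm3 had 267 and 447 FPKM in DKO Treg and 0.64 and 0.716 FPKM in WT Tconv, and Ifitm1 had 126 and 421 FPKM against 0.542 and 0.824 FPKM (7.69 ± 0.72 and 7.11 ± 0.83, adjusted p = 4.7e-06 and 2.01e-05). The members of this family are similar in sequence and the submitters' notes do not say how reads that match several of them were assigned. The wider interferon response did not follow them, with a median of 0.08. Of 20 genes, 5 (25%) were higher (Ifitm1, Ifitm2, Ifitm3, Gbp2 and Bst2), 1 (5%) was lower (Oasl1) and 14 were not called. Over all genes tested, 20.7% were higher and 16.2% lower. Bst2 and Oasl1 were named after their values were seen, and neither was called when any of the 4 libraries was left out.

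Type 2 cytokines and receptors of type 2 effector cells were also among the largest rises. Il5 (chr11:53534296-53538605), which drives eosinophils, had 412 and 239 FPKM in DKO Treg and 1.95 and 0.452 FPKM in WT Tconv (7.25 ± 0.90, adjusted p = 3.62e-05). Il13 (chr11:53444825-53448204), which acts on epithelium and smooth muscle, had 298 and 228 FPKM in DKO Treg and 2.87 and 0.751 FPKM in WT Tconv (6.65 ± 1.03, adjusted p = 0.000205). In WT Treg the highest library had 1.95 FPKM of Il5 and 4.50 FPKM of Il13, so DKO Treg stood far above both WT groups. Il4, which lies beside Il13 in the same cluster, had 50.5 and 30.2 FPKM in DKO Treg and 20.6 and 7.11 FPKM in WT Tconv and was not called (1.60 ± 1.07, adjusted p = 0.267).

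In the list of 22 T helper cytokines, 4 (18.2%) were higher than in WT Tconv, 1 (4.55%) was lower and 17 were not called, with a median of 0.64. Neither share was above that of all genes tested, 20.7% higher and 16.2% lower. Besides Il5 and Il13 the higher genes were Il9 (20.4 and 5.42 FPKM in DKO Treg against 0.344 and 0 FPKM, 3.34 ± 0.58, adjusted p = 0.000489) and Ifng, the type 1 cytokine (27.3 and 41.3 FPKM against 10.5 and 4.98 FPKM, 2.06 ± 0.72, adjusted p = 0.0364). The lower one was Ltb, lymphotoxin beta (-1.39 ± 0.41, adjusted p = 0.0167). Il17a had 0.589 and 0.296 FPKM in DKO Treg and 0.292 and 0.0199 FPKM in WT Tconv (0.32 ± 0.74, adjusted p = 0.778). Ifng was not called when any of the 4 libraries was left out, and Ltb was not called without either DKO Treg library or without WT Tconv replicate 2. Ifng, Il4 and Il17a were named after their values were seen.

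The receptors and enzymes of type 2 effector cells rose with these cytokines: 6 of 11 tested genes were higher and 0 lower, with a median of 2.79. Il1rl1, the interleukin 33 receptor ST2, had 339 and 74.9 FPKM in DKO Treg and 2.70 and 1.34 FPKM in WT Tconv (5.77 ± 0.85, adjusted p = 0.000144), and 21.7 to 88.3 FPKM in WT Treg. Cysltr1, a receptor for cysteinyl leukotrienes, had 112 and 69.1 FPKM in DKO Treg and 0.86 and 0.553 FPKM in WT Tconv (5.71 ± 0.43, adjusted p = 1.04e-06). Hrh4, the histamine H4 receptor, had 44.5 and 49.0 FPKM against 0.549 and 0.379 FPKM (5.03 ± 0.37, adjusted p = 9.28e-07). Hdc, the enzyme that makes histamine, rose by 5.46 ± 0.64 and the chemokine receptor Ccr4 by 4.36 ± 0.42 (adjusted p = 2.32e-05 and 5.46e-06). In WT Treg, Cysltr1, Hrh4 and Hdc reached at most 1.95, 1.40 and 2.18 FPKM. Ccr4 and Ccr8, also higher in DKO Treg than in WT Tconv, had 41.1 to 82.7 and 24.9 to 188 FPKM in WT Treg. In WT Tconv they reached at most 12.05 and 10.2 FPKM. Ccr4 was higher in DKO Treg than in WT Treg (1.76 ± 0.37, adjusted p = 0.0024). Against WT Treg, Ccr8 and Il1rl1 were not called (-0.25 ± 0.70 and 1.87 ± 0.74, adjusted p = 0.813 and 0.0659).

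Several of these genes are also expressed by innate cells, so the markers of those cells were read in the same libraries. Mast cell and basophil markers summed to 22.8 and 29.95 FPKM in DKO Treg and to 3.96 and 5.16 FPKM in WT Tconv, and 2 of 4 tested (Kit and Il3ra) were called higher. The defining high-affinity IgE receptor Fcer1a was listed at 0 and 0.0496 FPKM in DKO Treg and at 0 FPKM in WT Tconv, and Cpa3, a mast cell protease, had 0.207 and 0.297 FPKM against 0.0451 and 0.031 FPKM. The basophil protease Mcpt8 had 1.31 and 5.70 FPKM in DKO Treg and 0 and 0.03 FPKM in WT Tconv. Prss34, another basophil protease, had 0.767 and 4.48 FPKM in DKO Treg and 0 FPKM in each WT Tconv library. Mcpt8 and Prss34 were not called in the main fit (adjusted p = 0.12 and 0.18). Eosinophil markers summed to 6.24 and 84.1 FPKM in DKO Treg and to 0.300 and 0.333 FPKM in WT Tconv, with 2 of 3 tested called higher, Ccr3 and Epx. With the library run as a block, all 3 were higher. Ccr3 was not called without DKO Treg replicate 1, and Epx without any of the other 3 libraries left out in turn. Nearly all of the second sum was Prg2, the major basic protein of eosinophils, at 0.574 and 77.5 FPKM in DKO Treg and 0.0893 and 0.18 FPKM in WT Tconv (3.29 ± 1.49, adjusted p = 0.0988).

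The eotaxin receptor Ccr3, which type 2 T cells can also express, had 5.26 and 1.94 FPKM in DKO Treg and 0.11 and 0.0575 FPKM in WT Tconv, and made up most of the first sum. Ccr3 was thus higher in DKO Treg replicate 1 and Prg2 in DKO Treg replicate 2. Group 2 innate lymphoid cell markers, most of which T cells also express, summed to 1626 and 1252 FPKM in DKO Treg and to 811 and 665 FPKM in WT Tconv, with 5 of 10 higher and 1 lower. The part of any of these cells in the type 2 genes was not tested.

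The helper lineage factors moved in several directions. Of 12 tested, 6 were higher than in WT Tconv, 2 lower and 4 not called, with a median of 1.60. Pparg, a nuclear receptor used by type 2 cells and tissue Treg, had 31.3 and 16.3 FPKM in DKO Treg and 0.144 and 0.178 FPKM in WT Tconv (4.35 ± 0.36, adjusted p = 2.02e-06). Ahr, the aryl hydrocarbon receptor, had 30.3 and 21.7 FPKM against 2.57 and 1.61 FPKM (3.13 ± 0.40, adjusted p = 4.91e-05). Tbx21, the type 1 factor T-bet, had 19.8 and 27.9 FPKM against 3.93 and 2.19 FPKM (2.63 ± 0.34, adjusted p = 5.06e-05), while the related Eomes fell to 0.529 and 0.742 FPKM in DKO Treg, against 4.39 and 3.25 FPKM in WT Tconv (-1.55 ± 0.24, adjusted p = 0.000219).

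Of 24 genes of activated and effector T cells, 20 were higher than in WT Tconv, 1 lower and 3 not called, with a median of 3.13. Against WT Treg, 17 were higher and 1 lower, beside 19.4% and 13.6% over all genes tested. Havcr2, the inhibitory receptor TIM-3, had 34 and 66.3 FPKM in DKO Treg and 0.468 and 0.311 FPKM in WT Tconv (5.13 ± 0.42, adjusted p = 1.92e-06), and the membrane-binding annexin gene Anxa2 had 508 and 566 FPKM against 17.2 and 18.7 FPKM (4.83 ± 0.35, adjusted p = 8.96e-07). The lower gene was Cd69, an early activation marker that retains cells in lymphoid tissue, with 44.2 and 30.9 FPKM in DKO Treg and 167 and 149 FPKM in WT Tconv (-2.06 ± 0.64, adjusted p = 0.0219). It was named after its value was seen and was not called when any of the 4 libraries was left out. The list overlaps the identity lists in Icos, Ctla4, Tigit, Klrg1, Lag3, Lgals1, S100a4, S100a6, Id2 and Prdm1.

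Chemokine and homing receptors moved in both directions. Of 22, 8 (36.4%) were higher, 5 (22.7%) lower and 9 not called, beside 20.7% higher and 16.2% lower over all genes tested. Cxcr6, an effector and tissue receptor, had 744 and 345 FPKM in DKO Treg and 54.0 and 27 FPKM in WT Tconv (3.69 ± 0.69, adjusted p = 0.000835), and Ccr2, an inflammatory receptor, 62.5 and 42.8 FPKM against 3.97 and 3.18 FPKM (3.53 ± 0.53, adjusted p = 0.00017). Ccr6, a receptor of mucosal Treg and named after its values were seen, had 1.71 and 3.06 FPKM in DKO Treg and 1.53 and 1.27 FPKM in WT Tconv (0.47 ± 0.41, adjusted p = 0.405). WT Treg had 22.6 to 32.7 FPKM of Ccr6, and DKO Treg minus WT Treg was -3.07 ± 0.355 (adjusted p = 3.61e-05). The counts of the homing list were 5 to 8 higher and 2 to 3 lower when a library was left out.

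**Figure D4:**
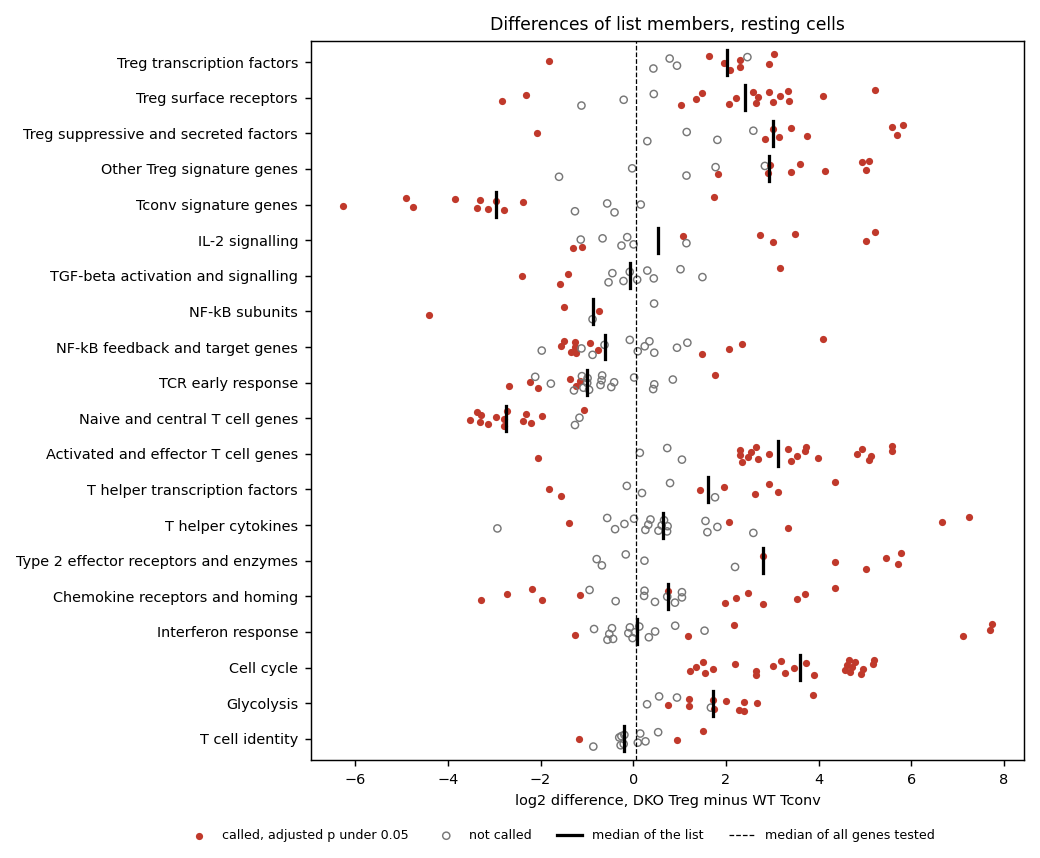
Log2 differences between DKO Treg and WT Tconv for the tested members of 20 gene lists, 1 point per gene, with called genes filled, genes not called open, the list's median as a black bar and the median of all genes as a dashed line. All 24 cell cycle genes lie to the right, the naive and central T cell genes to the left, and the NF-kB targets, with a median of -0.62, on both sides.

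The cell cycle list was the most uniform. All 24 genes were higher in DKO Treg than in WT Tconv, in both pairs and by 1.21 to 5.19, with a median of 3.59, and 23 of them were also higher than in WT Treg. Ccna2, a cyclin of DNA replication and mitosis, had 113 and 179 FPKM in DKO Treg and 1.99 and 4.29 FPKM in WT Tconv (5.17 ± 0.51, adjusted p = 6.78e-06). Rrm2, a subunit of ribonucleotide reductase, had 167 and 279 FPKM against 4.33 and 5.63 FPKM (5.19 ± 0.50, adjusted p = 5.12e-06). Its partner Rrm1 and the replicative helicase gene Mcm6 rose by 3.18 ± 0.20 and 1.72 ± 0.15 (adjusted p = 2.51e-07 and 2.42e-06). Without WT Tconv replicate 2 the count was 23.

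Glycolytic genes rose as well, 11 of 15 higher and 0 lower, with a median of 1.73. Ldha, which makes lactate, had 768 and 651 FPKM in DKO Treg and 171 and 124 FPKM in WT Tconv (2.27 ± 0.22, adjusted p = 4.91e-06). The triose isomerase Tpi1 rose by 3.88 ± 0.40, the mutase Pgam1 by 1.99 ± 0.25 and the pyruvate kinase Pkm2 by 1.73 ± 0.18 (adjusted p = 7.97e-06, 3.63e-05 and 8.71e-06). Processed copies of several of these genes lie elsewhere in the genome, which makes their level uncertain.

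The largest falls were of genes with varied functions. Fam101b (chr11:75832697-75841284), an actin regulator, had 2.81 and 3.10 FPKM in DKO Treg and 321 and 286 FPKM in WT Tconv (-6.26 ± 0.67, adjusted p = 1.06e-05), and 7.27 to 31.9 FPKM in WT Treg. St8sia6, a sialyltransferase, had 1.38 and 1.04 FPKM in DKO Treg and 138 and 126 FPKM in WT Tconv (-5.92 ± 0.47, adjusted p = 1.33e-06). Vipr1, a receptor for vasoactive intestinal peptide, Actn1, an actin crosslinker, and Pou6f1, a homeodomain factor, fell by 4.92, 4.75 and 4.52 on the log2 scale, and Pik3ip1, an inhibitor of PI3K, by 4.42. Rel itself was the seventh largest fall, followed by Cyp2d22, Neat1, Dapl1, Amigo2 and Tmie, with differences of -3.80 to -4.18. Dapl1 was not called without either DKO Treg library or without WT Tconv replicate 2.

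**Figure D5:**
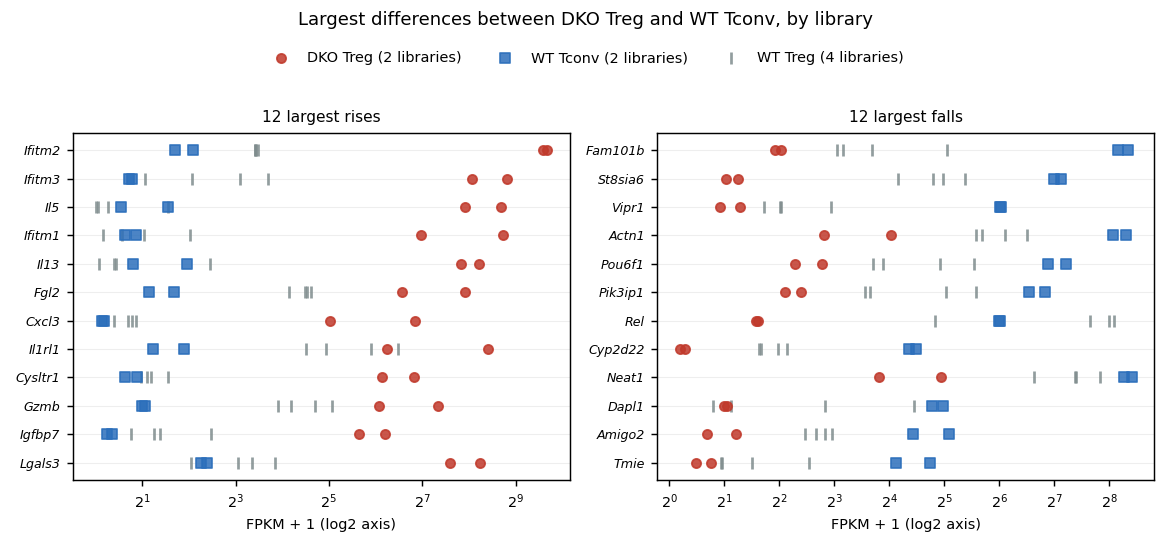
FPKM + 1 on a log2 axis for the 12 largest rises (left) and the 12 largest falls (right) among called genes that averaged 5 FPKM or more in either group, with DKO Treg as red circles, WT Tconv as blue squares and WT Treg as grey ticks. For Il5, Il13, Ifitm1, Ifitm2 and Ifitm3 the WT Treg ticks lie with or near WT Tconv, and for Fgl2, Il1rl1 and Gzmb between WT Tconv and DKO Treg or among the DKO Treg points.

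NF-kB genes moved unevenly. Of the 5 subunits, Rel, Rela and Relb were lower, 0 were higher and Nfkb1 and Nfkb2 were not called. Relb, a partner in the noncanonical pathway, had 51.6 and 33 FPKM in DKO Treg and 99.2 and 140.3 FPKM in WT Tconv (-1.49 ± 0.41, adjusted p = 0.0108), and was not called without DKO Treg replicate 2 or WT Tconv replicate 2. The count of 3 lower subunits was 1 without either of those libraries and 2 after scaling by size factors. Nfkb1, which encodes p50, had 379 and 249 FPKM in DKO Treg and 198 and 254 FPKM in WT Tconv (0.45 ± 0.57, adjusted p = 0.578). Of 23 feedback and target genes, 8 (34.8%) fell, 4 (17.4%) rose and 11 were not called, with a median of -0.62. Over all genes tested, 16.2% fell and 20.7% rose. Set against WT Treg, 0 of the 23 were called higher and 8 lower, with a median of -0.63. In that comparison 19.4% of all genes were higher and 13.6% lower.

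The lower targets included inhibitors of the pathway and survival genes. Nfkbia, the inhibitor that NF-kB induces to switch itself off, had 162 and 128 FPKM in DKO Treg and 387 and 466 FPKM in WT Tconv (-1.55 ± 0.53, adjusted p = 0.0324), and was named after its value was seen. It was not called when any of the 4 libraries was left out. Tnip1, an adaptor of the A20 protein, had 63.0 and 55.5 FPKM against 128 and 161 FPKM (-1.26 ± 0.25, adjusted p = 0.00143). The inhibitors of apoptosis Birc3, Birc2 and Cflar fell by 1.34 ± 0.31, 0.93 ± 0.22 and 0.77 ± 0.18 on the log2 scale (adjusted p = 0.00342, 0.00511 and 0.0036). Against WT Treg, Birc3 and Birc2 were also lower (adjusted p = 0.0051 and 0.00122), while Cflar was not called (-0.28 ± 0.15, adjusted p = 0.18). The 4 genes higher than in WT Tconv were Tnfrsf9, Tnfrsf4 and Tnfrsf18, also Treg receptors, and the survival gene Bcl2l1 (2.34 ± 0.68, adjusted p = 0.0146). The 8 lower calls were 7 without DKO Treg replicate 1 or WT Tconv replicate 1 and 4 without DKO Treg replicate 2 or WT Tconv replicate 2, and the 4 higher calls became 0 to 2.

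Promoters are shown for 4 genes whose levels the account turns on, as the 250 bases before the start of the gene in RefSeq (GRCm38.p6, a later build than the mm9 of the expression values). Capitals mark matches to the NF-kB motif GGNNTTTCC, searched on both strands of windows that run 250 bases before to 50 bases after the start. Nfkbia (chr12:55492648-55492897, minus strand) had 2 matches, and Rel (chr11:23770970-23771219, minus strand) and Il13 (chr11:53634703-53634952, minus strand) had 1 each. Foxp3 (chrX:7579426-7579675, plus strand) had none in this window.
Nfkbia: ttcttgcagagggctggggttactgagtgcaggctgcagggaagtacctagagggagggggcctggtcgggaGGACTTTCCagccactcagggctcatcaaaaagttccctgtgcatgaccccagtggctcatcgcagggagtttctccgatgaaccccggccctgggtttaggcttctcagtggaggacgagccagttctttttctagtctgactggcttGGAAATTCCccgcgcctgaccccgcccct
Rel: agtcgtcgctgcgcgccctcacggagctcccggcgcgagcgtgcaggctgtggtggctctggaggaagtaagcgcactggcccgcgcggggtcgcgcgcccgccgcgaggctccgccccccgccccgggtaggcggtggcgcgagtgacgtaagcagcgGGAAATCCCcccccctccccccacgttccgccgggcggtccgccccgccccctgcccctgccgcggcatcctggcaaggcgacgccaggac
Il13: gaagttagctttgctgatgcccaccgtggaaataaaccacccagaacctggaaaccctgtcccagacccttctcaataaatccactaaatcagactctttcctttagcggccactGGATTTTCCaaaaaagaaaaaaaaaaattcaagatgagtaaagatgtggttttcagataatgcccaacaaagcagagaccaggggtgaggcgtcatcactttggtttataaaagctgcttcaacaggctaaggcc
Foxp3: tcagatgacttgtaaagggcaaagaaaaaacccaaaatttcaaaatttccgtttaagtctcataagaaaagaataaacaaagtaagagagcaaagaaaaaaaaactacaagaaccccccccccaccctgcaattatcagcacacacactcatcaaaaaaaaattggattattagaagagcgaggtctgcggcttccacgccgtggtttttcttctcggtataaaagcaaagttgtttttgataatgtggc

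Among all 32851 promoter windows 5.82% held the motif, and among the 8261 tested genes with a promoter entry 7.43% did in at least 1 window. It was in 121 of 1687 genes called higher (7.17%) and in 86 of 1368 called lower (6.29%), close to the share of all tested genes in each direction. In the list of NF-kB feedback and target genes 8 of 19 with an entry held it (42.1%). Of these, Nfkbia was called lower than in WT Tconv, Bcl2l1 and Tnfrsf9 were called higher, and Bcl3, Tnfaip3, Tnip3, Icam1 and Nfkb2 were not called. In the 4 Treg identity lists the motif was in 0 of 9 transcription factors, 1 of 13 receptors (Tnfrsf9), 2 of 10 secreted factors (Ebi3 and Il12a) and 0 of 10 other signature genes. A match describes these letters only, and a window without one says nothing about binding elsewhere.

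Signals that Treg depend on were uneven. Over all genes tested, 20.7% were higher than in WT Tconv and 16.2% lower. In interleukin 2 signalling 6 of 14 genes (42.9%) were higher than in WT Tconv, 2 (14.3%) lower and 6 not called, with a median of 0.54. Beside the receptor chains Il2ra and Il2rb, these were led by the feedback inhibitors Socs2 and Socs1, and Socs1 had 304 and 232 FPKM in DKO Treg and 25 and 20.5 FPKM in WT Tconv (3.50 ± 0.50, adjusted p = 0.000104). The lower genes, named after their values were seen, were the kinase gene Jak1 and Stat5b, and Stat5b was not called when any of the 4 libraries was left out. Neither Jak1 nor Stat5b was called against WT Treg (-0.405 ± 0.175 and -0.705 ± 0.355, adjusted p = 0.0911 and 0.144). In TGF-beta activation and signalling 1 of 13 was higher, Lrrc32, and 3 were lower: the inhibitory Smad7 (18.3 and 10.6 FPKM in DKO Treg against 85.2 and 71.0 FPKM, -2.40 ± 0.35, adjusted p = 0.000136), the common mediator Smad4 (-1.42 ± 0.17, adjusted p = 2.38e-05) and the receptor Tgfbr2 (-1.59 ± 0.37, adjusted p = 0.00427). Without DKO Treg replicate 2 neither Lrrc32 nor Tgfbr2 was called.

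Of 24 early response genes of the T cell receptor, 6 (25%) were lower than in WT Tconv, 1 (4.17%) was higher and 17 were not called. Over all genes tested, 16.2% were lower, 20.7% higher and 63.1% not called. The median of the list was -0.99, and 19 of its genes were lower in both pairs. Egr2 and Egr3, factors induced within the first hour of receptor signals, had 5.87 and 3.32 FPKM and 2.30 and 2.02 FPKM in DKO Treg, against 25.4 and 23.6 FPKM and 19.7 and 18.6 FPKM in WT Tconv (-2.23 ± 0.52 and -2.67 ± 0.47, adjusted p = 0.00411 and 0.000558). Zfp36, which destabilises cytokine RNA, fell by 1.36 ± 0.26 on the log2 scale (adjusted p = 0.00111). Ier3 was the higher gene (1.76 ± 0.47, adjusted p = 0.009) and was not called without WT Tconv replicate 1. The 6 lower calls became 3 or 4 when a library was left out.

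Markers of cytotoxic cells were mixed. Of 9 natural killer and CD8 T cell genes, 3 were higher, 1 lower (Eomes) and 5 not called, and their sum was 50.7 and 94.9 FPKM in DKO Treg and 46.8 and 34.1 FPKM in WT Tconv. Gzma, the protease granzyme A, had 26.6 and 57.2 FPKM in DKO Treg and 2.02 and 0.396 FPKM in WT Tconv (4.29 ± 0.70, adjusted p = 0.000318). The receptors Klrk1 and Ncr1 rose by 1.61 ± 0.47 and 0.91 ± 0.26 (adjusted p = 0.015 and 0.0149), and Ncr1 reached at most 1.31 FPKM. Neither was called without DKO Treg replicate 2 or WT Tconv replicate 2. Cd8a stayed at 0.0712 and 0.194 FPKM in DKO Treg and 0.194 and 0.0877 FPKM in WT Tconv. MHC class II genes summed to 464 and 290.4 FPKM in DKO Treg and to 87.1 and 67.3 FPKM in WT Tconv, and 1 of 7, the invariant chain Cd74, was called higher (2.96 ± 0.51, adjusted p = 0.000513). With the library run as a block, 5 of the 7 were higher, beside 4002 of all 11535 genes. Csf1r, a defining marker of macrophages, reached at most 1.5 FPKM in DKO Treg. The part of other cell types in these genes was not tested.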

How the data were processed

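RNA from mouse T cells was sequenced as Illumina TruSeq libraries after RNeasy extraction, per the labels' protocols. The authors deposited FPKM values per gene, made with bcl2fastq, TopHat and Cufflinks on mm9, per the submitters' processing notes. Versions, annotation and strandedness are not stated there, so overlapping and antisense genes cannot be told apart.

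Of 23235 symbols on 23699 entries, 247 with an entry not marked OK by Cufflinks in some library were left out, and values of 181 of the 22988 kept, which had several entries, were summed. Depth was the sum of fragment numbers implied by each FPKM value and its upper Cufflinks confidence limit. Of the implied numbers under 15, 70.5% to 74.4% lay within 0.02 of a whole number. Counts therefore could not be recovered, and no count test was run.

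limma 3.58.1 (R 4.3.3, with a trend) was fitted to log2(FPKM + 1) over 21 libraries outside the TAT-Cre set, with 1 mean per group, for 11535 genes with at least 1 FPKM in 2 libraries, adjusted by Benjamini-Hochberg. The script was tested on simulated data. The gene lists, and the rule for named genes, were chosen with earlier results of these data known. The rule took Rela, Rel and Foxp3, the members of 5 identity lists, the 12 largest rises and falls, and the 4 genes with the smallest p of each other list. Alternatives were other pseudocounts, filters, libraries, scaling, a block for the library run, and each replicate left out. Promoters are from RefSeq (GRCm38.p6), matched by symbol. A few results are not reported here.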

Additional observations from a re-analysis of the deposited data

Results flagged for a closer look

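Of 76 genes examined in the 4 resting WT Treg libraries, 7 had 1 library far from the other 3, and chance gives about 1 in 20. Replicate 1 was the low library in 6 of them. It had 2.38 FPKM of Areg (36.6 to 51.5 FPKM in the others), 27.9 FPKM of Dusp4 (398 to 434 FPKM), 111 FPKM of Icos (274 to 318 FPKM), 8.79 FPKM of Nfil3 (159 to 195 FPKM), 27.5 FPKM of Rel (199.5 to 271 FPKM) and 94.8 FPKM of Tnfrsf1b (199.9 to 227 FPKM). Batf was low in replicate 3, with 65 FPKM beside 81.7 to 82.2 FPKM. These libraries enter the spread of every test and the values given for WT Treg. Leaving out WT Treg replicate 1 together with p65KO Treg replicate 3 and c-RelKO Treg replicate 2, an alternative chosen after seeing the data, gave 5184 called genes between DKO Treg and WT Tconv in place of 4254.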

How the results depend on the processing

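The number of genes called between DKO Treg and WT Tconv, 4254, was 7399 with the replicate block (the library run), 6529 with the block in the 4 libraries alone and 7385 with the block after size factors. It was 2715 to 3074 when a replicate of these groups was left out, and 3665 to 5935 under the other alternatives. The correlation of deviations of same-numbered libraries was 0.543, but with 2 pairs the numbers alone do not establish pairing. With the block, 18 in place of 6 T cell receptor early response genes were lower, 11 in place of 8 NF-kB targets were lower, and 8 in place of 4 T helper cytokines were higher. The program counts of 184 higher Treg-high and 67 lower Tconv-high genes were 147 to 224 and 49 to 90.

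Of 133 named genes called between DKO Treg and WT Tconv, 0 changed direction, 18 to 29 were not called without 1 library, and 0 to 7 under the other alternatives. Foxp3 and Ikzf2 were called in all.

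Between DKO Treg and WT Treg, 3801 genes were called: 7063 with the block, 1724 in those libraries alone, 6084 with both and 6941 with the block after size factors. Leaving out a replicate gave 2120 (without DKO Treg replicate 2) to 4635 (without WT Treg replicate 1). Under those 3 blocked fits, in that order, Cst7 was 1.06, 1.3 and 0.92 (unblocked -0.06), Irf4 -0.51, -0.54 and -0.66 (0.14), Tnfrsf18 -0.54, -0.65 and -0.68 (0.01) and Tnfrsf9 -1.27, -1.26 and -1.41 (0.19). Coro2a was 0.41 with the block in those libraries alone (-0.20). The cause was not tested.

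Depth limits low genes most in replicate 1, and 2 libraries per group limit every test.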
